A study of Homo sapiens with 8 samples.

Results

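The transcripts described here are those of the epidermal growth factor (EGF) family and its receptors, 7 ligand genes (AREG, EREG, EGF, TGFA, HBEGF, BTC and EPGN) and 3 receptor genes (EGFR, ERBB2 and ERBB3). They were chosen by gene name, with earlier results of these data known. These 10 genes were among 60649 gene identifiers in the tables, 19942 of them protein-coding. Each gene had 1 record in every library. RNA-seq of polyA RNA was run on HCT116, a human colorectal carcinoma cell line, and on UF1hypo, a heterozygous UHRF1 knockout derived from it. UHRF1 is a factor that keeps DNA methylation in place when DNA is copied. UF1hypo is 1 clone, in which gene targeting with CRISPR-Cas9 removed an exon from 1 UHRF1 allele, so what the lost allele does and what is particular to this clone cannot be told apart. Cells of both lines were infected with lentivirus and kept as stable pools, and the virus carried either shScr, a control hairpin, or shUHRF1, which targets UHRF1. This gives 4 groups of 2 libraries each, HCT116 shScr, HCT116 shUHRF1, UF1hypo shScr and UF1hypo shUHRF1, for 8 libraries in all. The UF1hypo libraries take that name from their titles, while their cell line label also reads HCT116. The labels do not say that the libraries of a group came from separate cultures, so p-values measure only the spread between these libraries, which may be technical.

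EGF family ligands are made as proteins anchored in the cell membrane, and proteases of the ADAM family cut them free. AREG (amphiregulin) and TGFA (transforming growth factor alpha) bind EGFR, whereas EREG (epiregulin), HBEGF (heparin-binding EGF-like growth factor) and BTC (betacellulin) bind EGFR and also ERBB4. Ligand binding lets EGFR pair with another receptor of the family and switch on RAS and ERK signalling. ERBB2 has no known ligand and acts as a partner, and ERBB3 binds neuregulins but has weak kinase activity. In colorectal carcinoma AREG and EREG are the ligands most often studied.

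All values are TPM, the abundance of a transcript scaled for its length and to the same total in every library, so levels can be compared between genes. Aligned bases ranged from 5.42 to 7.83 gigabases per library, and as the tables hold no read counts, the number of reads behind a gene is unknown and no counting interval was formed. For UHRF1 the TPM of the shScr libraries was 87.5 and 98.4 in HCT116 cells and 47.3 and 50.6 in UF1hypo cells. That of the shUHRF1 libraries was 31.7 and 32.7 in the former and 34.1 and 21.1 in the latter, below shScr in each line. Of 11 markers of colorectal epithelium, 7 exceeded a TPM of 1 in every library and the other 4 (CDX1, VIL1, CDH17 and LGALS4) in none. The summed level of the 11 ranged from 4356 to 4410 in HCT116 shScr, 5487 to 5606 in HCT116 shUHRF1, 8822 to 9095 in UF1hypo shScr and 9968 to 12781 in UF1hypo shUHRF1. The keratin genes KRT8, KRT18 and KRT19 held most of this sum. EPCAM did not follow it, with group means of 368, 307, 342 and 244 in the same order. With shScr, 6 of the 7 had a fold change above 0 in UF1hypo against HCT116. By the test described below KRT8, KRT18, KRT19 and KRT20 were called higher, 4 of 7 beside 2.59% of all genes tested. None of 5 leukocyte and 4 endothelial markers reached a TPM of 1, and of 6 fibroblast markers only COL1A1 did, at up to 65.5. The replicates of UF1hypo shUHRF1 stood apart, with a Pearson's r of 0.956 between them across genes against 0.991 to 0.992 in the other groups. Genes with GC-rich transcripts were higher in replicate 1 than in replicate 2 (Spearman's rho 0.814 over genes, which are not independent replicates). The replicates of UF1hypo shScr differed with GC content in the other direction (rho −0.51), and the rho in both HCT116 groups was −0.07 or nearer to 0. Log2 fold changes over genes followed GC content as well, with a rho of 0.46 and 0.48 for UF1hypo against HCT116 with shScr and with shUHRF1, 0.36 for the UF1hypo knockdown and 0.09 for the HCT116 knockdown. What part the epithelial marker levels have in the results was not tested.

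The 250 bases before the start sites of AREG, EREG and HBEGF are shown because these are the ligands whose levels changed most. They come from RefSeq on GRCh38.p14 and run 5′ to 3′ on the strand of the gene, with every CpG, the site of DNA methylation, in capitals. The regions are chr4:74444886-74445135 on the plus strand for AREG, chr4:74364895-74365144 on the plus strand for EREG and chr5:140346604-140346853 on the minus strand for HBEGF.
AREG: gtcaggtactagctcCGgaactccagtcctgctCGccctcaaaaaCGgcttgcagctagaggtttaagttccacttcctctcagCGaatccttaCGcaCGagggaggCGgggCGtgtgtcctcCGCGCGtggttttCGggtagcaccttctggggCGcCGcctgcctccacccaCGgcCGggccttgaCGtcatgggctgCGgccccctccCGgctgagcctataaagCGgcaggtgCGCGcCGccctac
EREG: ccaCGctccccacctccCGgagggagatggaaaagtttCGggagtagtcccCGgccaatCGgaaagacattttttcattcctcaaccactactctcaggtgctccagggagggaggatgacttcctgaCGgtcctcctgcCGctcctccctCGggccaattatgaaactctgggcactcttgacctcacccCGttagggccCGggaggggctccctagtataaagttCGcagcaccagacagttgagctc
HBEGF: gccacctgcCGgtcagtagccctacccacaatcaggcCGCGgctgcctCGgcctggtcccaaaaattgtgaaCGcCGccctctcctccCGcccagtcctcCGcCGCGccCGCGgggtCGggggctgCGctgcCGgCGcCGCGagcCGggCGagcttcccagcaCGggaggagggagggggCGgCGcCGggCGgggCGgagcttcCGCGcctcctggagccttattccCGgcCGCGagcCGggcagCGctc

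Around their starts, AREG and HBEGF hold more CpG than the median promoter and EREG holds fewer. Of the 300 bases from 250 before to 50 after the start, AREG holds 27 CpG, EREG 12 and HBEGF 38, beside a median of 22 over 15192 promoters. Of the 9 members matched in that table, EGFR holds 33 CpG, TGFA 30, ERBB2 24, BTC 12, and EGF and EPGN 4 each. A search on both strands found TGACGTCA, the cAMP response element, in AREG only among the 9, from position −65, and in 2.64% of all promoters. TATAAA was found in AREG, EREG and EPGN and in 9.58% of all promoters, and GGGCGG in AREG, TGFA, HBEGF, BTC and EGFR and in 59.2%. TGACTCA, which AP-1 factors bind, was found in EGF and in 3.65%. A match is a run of letters and does not show that a factor binds there, and DNA methylation was not analysed here.

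In HCT116 shScr cells AREG was the most abundant member by a wide margin, with a mean TPM of 1097 ± 14.3 (SD, n = 2 libraries, as for each group mean here). EREG followed at 252 ± 21.6, then ERBB2 at 57.7 ± 2.21, TGFA at 39.6 ± 0.169, EGFR at 30.8 ± 0.504, ERBB3 at 27.2 ± 4.14, HBEGF at 14.5 ± 0.369 and BTC at 5.37 ± 1.103. No neighbours in this order overlapped in their libraries. EPGN (epigen) and EGF itself never exceeded a TPM of 1 in any library, with highest values of 0.457 and 0.848, and were not tested, which leaves 8 tested members in each comparison. EGF was listed at 0 and 0.0898 in HCT116 shScr and at 0.848 and 0.741 in UF1hypo shScr. In HCT116 shUHRF1 the order again began with AREG and EREG, at means of 1083 ± 41.4 and 234 ± 1.74, while the libraries of ERBB2, EGFR, TGFA and ERBB3 overlapped from each neighbour to the next. In UF1hypo shScr the libraries of AREG (104 ± 14.0), EREG (86.7 ± 10.7) and ERBB2 (80.0 ± 13.1) overlapped between neighbours. In UF1hypo shUHRF1 the mean of ERBB2 (122 ± 30.8) was first and that of AREG (111 ± 27.3) second, and their libraries overlapped.

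The clone was first compared with its parent under the control hairpin, which asks how cells with 1 UHRF1 allele differ from cells with both. AREG and EREG were called lower, and no member was called higher. Of the 8 tested members 0 were called higher and 2 lower, where the background over 12856 protein-coding genes was 2.59% called higher and 0.949% called lower. A call needed an adjusted p below 0.05 in limma and a log2 fold change above 1 in size, the fold change being the difference of mean log2(TPM + 1), which understates changes of low genes. Taken gene by gene, an exact permutation test (two-sided) of 2 libraries against 2 cannot go below p = 0.33. In bulk RNA, fewer cells with a transcript and less of it per cell cannot be told apart.

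AREG (ENSG00000109321.11, chromosome 4, 74445136 to 74455005, plus strand, GRCh38) had a TPM of 1107 and 1087 in HCT116 shScr and of 114 and 93.8 in UF1hypo shScr. The groups lay far apart, and the log2 fold change was −3.40 (SE 0.184, adjusted p = 3.04e-05, limma). Among protein-coding genes ranked by TPM, AREG stood at 96 and 101 in HCT116 shScr and at 1471 and 1838 in UF1hypo shScr. The call held under all 17 alternatives, between −3.53 and −3.26.

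EREG (ENSG00000124882.4, chromosome 4, 74365145 to 74388749, plus strand) lies beside AREG and had a TPM of 267 and 237 in HCT116 shScr and of 94.2 and 79.1 in UF1hypo shScr. The groups did not overlap, and the log2 fold change was −1.53 (SE 0.358, adjusted p = 0.0475, limma). This call sat at the threshold. It held under 8 of 17 alternatives, and the adjusted p in limma was 0.302 without HCT116 shScr replicate 1, 0.196 without replicate 2, 0.158 without UF1hypo shScr replicate 1 and 0.276 without replicate 2. The fold change stayed between −1.66 and −1.41 when these libraries were left out. After a correction for GC content and length it was −1.19, the weakest of the 17 alternatives, though still called.

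HBEGF (ENSG00000113070.8, chromosome 5, 140332843 to 140346603, minus strand) had a TPM of 14.7 and 14.2 in HCT116 shScr and of 6.74 and 7.95 in UF1hypo shScr, again without overlap. Its log2 fold change of −0.89 (SE 0.184, adjusted p = 0.0298, limma) was too small to be called. For BTC (ENSG00000174808.12, chromosome 4, 74744759 to 74794523, minus strand) the TPM was 6.15 and 4.59 against 2.36 and 3.14, with a log2 fold change of −0.76 (adjusted p = 0.192, limma). TGFA (ENSG00000163235.16, chromosome 2, 70447284 to 70554193, minus strand) had 39.7 and 39.5 against 31.3 and 32.1, with a log2 fold change of −0.31 (adjusted p = 0.454, limma). None of these 3 ligands was therefore called.

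The receptors lay on the other side of 0. EGFR (ENSG00000146648.20, chromosome 7, 55019017 to 55211628, plus strand) had a TPM of 31.2 and 30.5 in HCT116 shScr and of 51.4 and 48.5 in UF1hypo shScr, which did not overlap, and a log2 fold change of 0.68 (SE 0.175, adjusted p = 0.0676, limma). ERBB2 (ENSG00000141736.14, chromosome 17, 39687914 to 39730426, plus strand) had 59.2 and 56.1 against 70.7 and 89.3, with a log2 fold change of 0.46 (adjusted p = 0.308, limma). ERBB3 (ENSG00000065361.17, chromosome 12, 56076799 to 56103505, plus strand) had 30.1 and 24.3 against 34.3 and 37.1, with a log2 fold change of 0.39 (adjusted p = 0.319, limma). No receptor was called. The median log2 fold change was −0.89 over the 5 tested ligands and 0.46 over the 3 receptors, beside −0.05 over all genes tested.

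Both AREG and EREG lie on chromosome 4 with EPGN and BTC, so the genes around them were set beside them. The window from 73308470 to 75794523 holds 21 other protein-coding genes, and 11 of them were tested with shScr in both lines. None was called, where 2.59% of all genes tested were called higher and 0.949% lower. Of the 11, 10 had a fold change below 0, and the median over the 11 was −0.51, beside −0.05 over all genes tested. Their transcripts have a GC content from 32.9% (CXCL8) to 45.4% (PARM1), beside a median of 49.7% over the genes tested. Fold changes in this comparison followed GC content (Spearman's rho 0.46), and what part that has here was not tested. The log2 fold change was −0.51 for MTHFD2L and −0.55 for PARM1, the tested neighbours nearest to the ligand genes on either side. It ranged from −0.77 (RASSF6) to 0.68 (CXCL3) over the 11. Of the libraries compared, RASSF6 exceeded a TPM of 1 only in HCT116 shScr (1.03 and 1.18). CXCL3 did so only in UF1hypo shScr replicate 1 (1.80), so each was tested only through the group where it was high. With shUHRF1 in both lines 12 were tested, with a median of −0.12 beside 0.05 over all genes tested. The chemokine genes CXCL8 and CXCL1 were called higher, where 12.2% of all genes were. Of the groups compared, both exceeded a TPM of 1 in UF1hypo shUHRF1 only (CXCL8 at 1.69 and 3.19, CXCL1 at 2.09 and 2.69) and so were tested only through the group where they were high. DNA copy number of the region was not analysed here.

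The summed ligand transcripts were lower in UF1hypo than in HCT116, with AREG and without it. With EREG left out as well, the lines overlapped. The 7 ligand genes together summed to 1435 and 1382 (shScr) and to 1384 and 1327 (shUHRF1) in the HCT116 libraries. In UF1hypo the sums were 249 and 217 (shScr) and 178 and 266 (shUHRF1). AREG made up 77.1% to 80.3% of it in the 4 HCT116 libraries and 43.2% to 51.6% in the 4 UF1hypo libraries. Without AREG the sums were 328 and 295 (shScr) and 272 and 273 (shUHRF1) in HCT116. In UF1hypo they were 136 and 123 (shScr) and 86.3 and 135 (shUHRF1), again with no overlap between the lines. Without AREG and EREG they were 60.8 and 58.5 (shScr) and 39.9 and 38.2 (shUHRF1) in HCT116. The UF1hypo values were then 41.3 and 44.1 (shScr) and 66.9 and 83.8 (shUHRF1), the last being the highest group. The ratio of AREG to EREG was 4.14 and 4.59 in HCT116 shScr and 1.21 and 1.19 in UF1hypo shScr.

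The composition of the pool changed again in UF1hypo shUHRF1. EREG took 37.8% and 36.5% of the ligand TPM in UF1hypo shScr but 10.9% and 19.3% with shUHRF1, where the ratio of AREG to EREG was 4.74 and 2.55. The share of HBEGF was 2.71% and 3.66% under shScr and 13.0% and 8.18% under shUHRF1, and that of TGFA went from 12.6% and 14.8% to 22.3% and 21.5%. Set against the 3 receptor genes, the summed ligand TPM was 11.9 to 16.5 times the summed receptor TPM in HCT116 libraries and 0.780 to 1.59 times in UF1hypo libraries. These sums and shares are descriptions and were not tested, and transcript sums do not measure secreted ligand.

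**Figure D1:**
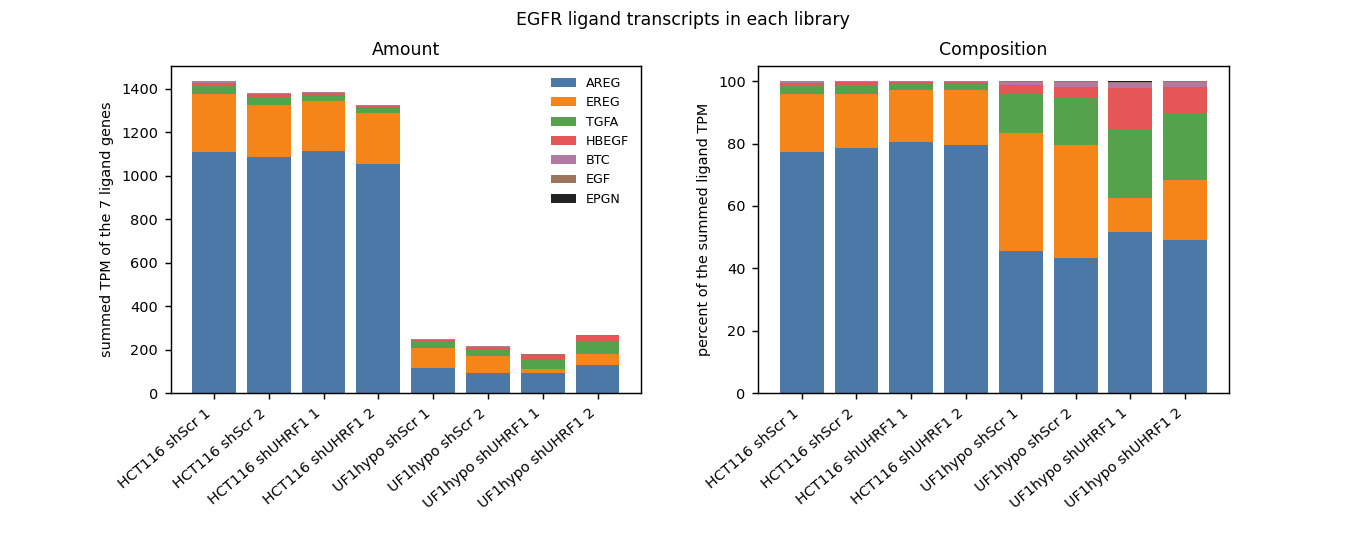
Summed TPM of the 7 ligand genes in each library (left) and the percent of that sum from each gene (right), both from 0. The left bars drop from at least 1327 in HCT116 to at most 266 in UF1hypo, and the right bars show EREG with a smaller and HBEGF with a larger share in UF1hypo shUHRF1 than in UF1hypo shScr.

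UHRF1 knockdown in HCT116 asks what the hairpin does in cells with both UHRF1 alleles. No member passed the test, while HBEGF, ERBB2 and TGFA had the lowest fold changes. UHRF1, the target of the hairpin, was not called either, with a log2 fold change of −1.50. A gene that was not called is therefore not shown to be unchanged. Of the 8 tested members 0 were called in either direction, beside 0.0472% called higher and 0.0236% called lower over 12704 genes in limma. At an unadjusted p below 0.05 there were 3 of 8 members (HBEGF, ERBB2 and TGFA), beside 810 of all genes tested, of which 9 were called. The spread in this fit came from all 8 libraries, among which the replicates of UF1hypo shUHRF1 differed most. With the HCT116 libraries fitted alone 89 of the 12704 genes were called in limma, so the share over all genes depends on that choice.

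The HBEGF libraries gave a TPM of 14.7 and 14.2 for shScr and of 6.67 and 6.76 for shUHRF1. The groups were well apart, and the log2 fold change was −1.002 (SE 0.185, adjusted p = 0.115, limma). With the 4 HCT116 libraries fitted alone the adjusted p in limma was 0.00555, and with library weights it was 0.0017, so that HBEGF was called lower there. ERBB2 had 59.2 and 56.1 against 39.6 and 32.3, a log2 fold change of −0.67 (SE 0.215, adjusted p = 0.472, limma). TGFA had 39.7 and 39.5 against 29.1 and 25.6, a log2 fold change of −0.52 (SE 0.199, adjusted p = 0.645, limma). Neither pair of groups overlapped.

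The AREG groups overlapped, at 1107 and 1087 (shScr) and at 1112 and 1054 (shUHRF1). The log2 fold change was −0.02 with a SE of 0.184. EREG had 267 and 237 against 232 and 235, just without overlap, and a log2 fold change of −0.11 with a SE of 0.358. For EGFR (31.2 and 30.5 against 33.3 and 25.9), ERBB3 (30.1 and 24.3 against 25.9 and 22.4) and BTC (6.15 and 4.59 against 3.53 and 5.49) the groups overlapped.

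UHRF1 knockdown in UF1hypo asks the same in the clone with 1 allele. HBEGF rose and EREG fell. Of the 8 tested members 1 was called higher and 1 lower, where 7.39% of 13620 genes were called higher and 1.14% lower in limma. UHRF1 itself was not called, as its log2 fold change of −0.84 was under the fold threshold.

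HBEGF stood at a TPM of 6.74 and 7.95 in UF1hypo shScr and of 23.2 and 21.7 in UF1hypo shUHRF1. The groups lay far apart, with a log2 fold change of 1.49 (SE 0.184, adjusted p = 0.00136, limma). The call held under all 18 alternatives, between 1.31 and 1.60. HBEGF transcripts have a GC content of 50.6%, near the median of 50.2% over the genes tested.

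EREG stood at 94.2 and 79.1 (shScr) and at 19.4 and 51.2 (shUHRF1), so its shUHRF1 libraries were both lower but far from each other. The log2 fold change was −1.42 (SE 0.363, adjusted p = 0.0362, limma). It moved from −0.74 without UF1hypo shUHRF1 replicate 1 to −2.10 without replicate 2. The call was lost without the first of these, and in limma the adjusted p was 0.197 without UF1hypo shScr replicate 1 and 0.11 without UF1hypo shScr replicate 2. EREG transcripts have the lowest GC content of the 10 members, at 36.1%, and after a correction for GC content and length the shUHRF1 libraries stood at 35.3 and 44.4 with a log2 fold change of −1.21 (adjusted p = 0.000162, limma).

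AREG stood at 114 and 93.8 (shScr) and at 92.0 and 131 (shUHRF1), with overlap, a log2 fold change of 0.09 and a SE of 0.184. TGFA had 31.3 and 32.1 against 39.8 and 57.0, which did not overlap, and a log2 fold change of 0.57 (SE 0.197, adjusted p = 0.0977, limma). ERBB2 had 70.7 and 89.3 against 143 and 99.9, also without overlap, and a log2 fold change of 0.59 (SE 0.215, adjusted p = 0.115, limma). None of the 3 was called.

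EGFR had 51.4 and 48.5 against 50.1 and 54.6, ERBB3 34.3 and 37.1 against 35.2 and 30.3, and BTC 2.36 and 3.14 against 2.71 and 4.25. Their groups overlapped, and their log2 fold changes were 0.07, −0.12 and 0.24.

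The difference between these knockdown effects, UF1hypo minus HCT116, was tested as an interaction. HBEGF rose in UF1hypo and had a fold change below 0, not called, in HCT116, and its difference of 2.50 on the log2 scale (SE 0.260, adjusted p = 0.00147, limma) was the only one called among the members. Of 8 tested members 1 was thus called higher and 0 lower, where 4.54% of 13781 genes were called higher and 0.559% lower. Under all 20 alternatives the HBEGF difference stayed called, between 2.22 and 2.70.

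ERBB2 (difference 1.26, SE 0.304, adjusted p = 0.0538, limma) and TGFA (1.09, SE 0.279, adjusted p = 0.0664, limma) lay just outside the threshold. Both had lower values with shUHRF1 than with shScr in HCT116 and higher values in UF1hypo, with no overlap in either line. TGFA was called without UF1hypo shUHRF1 replicate 1 (1.35, adjusted p = 0.00607, limma) and after the GC and length correction (1.09, adjusted p = 0.00137, limma). ERBB2 was called without UF1hypo shUHRF1 replicate 2 (1.52, adjusted p = 0.00836, limma), while the correction lowered its difference to 0.96.

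For EREG the difference was −1.32 (SE 0.513, adjusted p = 0.214, limma), so the fall in UF1hypo was not shown to differ from the value in HCT116. It was called after the GC and length correction (−1.19, adjusted p = 0.00227, limma) and without UF1hypo shUHRF1 replicate 2 (−1.99, adjusted p = 0.00183, limma). The differences of AREG (0.10, SE 0.260), EGFR (0.13, SE 0.245), ERBB3 (0.04, SE 0.261) and BTC (0.47, SE 0.396) were within about 1 SE or little more.

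**Figure D2:**
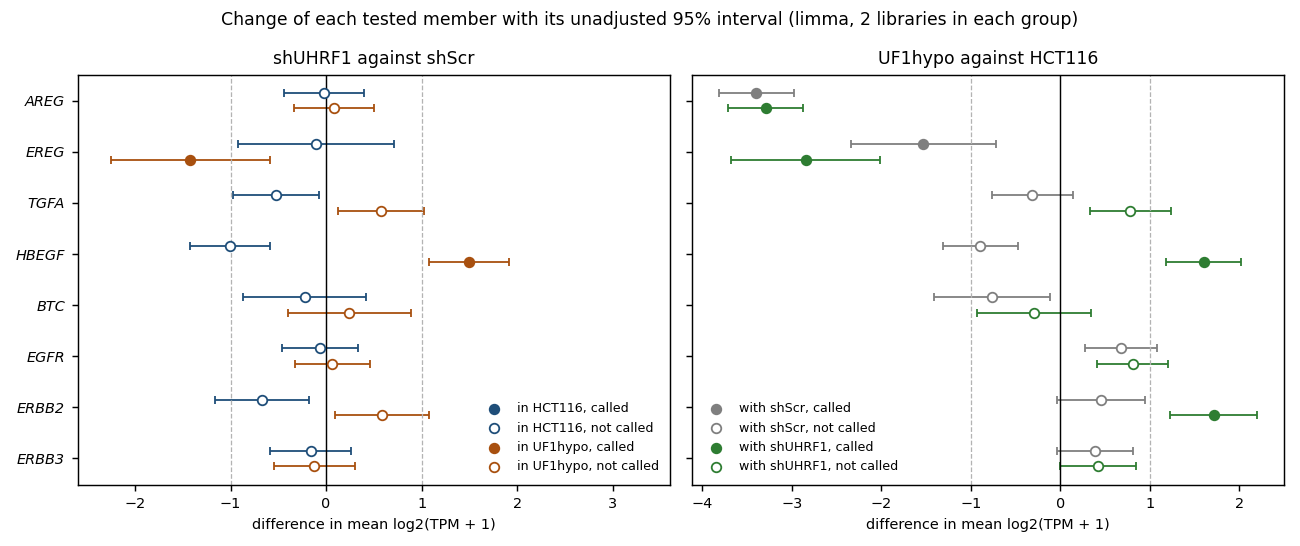
Log2 fold change of each of the 8 tested members with its unadjusted 95% interval from limma, for shUHRF1 against shScr in each line (left) and for UF1hypo against HCT116 under each hairpin (right); filled points are called and dashed lines mark 1 and −1. HBEGF lies at −1.002 in HCT116 and at 1.49 in UF1hypo on the left, and AREG lies below −3 under both hairpins on the right.

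Last, both lines were compared with shUHRF1. AREG and EREG were lower and HBEGF and ERBB2 higher in UF1hypo shUHRF1 than in HCT116 shUHRF1. Of the 8 tested members 2 were called higher and 2 lower, where 12.2% of 13650 genes were called higher and 3.92% lower in limma. This comparison shares libraries with the knockdown comparisons and is no independent evidence for them.

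AREG had a TPM of 1112 and 1054 in HCT116 shUHRF1 and of 92.0 and 131 in UF1hypo shUHRF1, a log2 fold change of −3.29 (SE 0.184, adjusted p = 8.73e-06, limma). EREG had 232 and 235 against 19.4 and 51.2, a log2 fold change of −2.85 (SE 0.363, adjusted p = 0.000822, limma). HBEGF had 6.67 and 6.76 against 23.2 and 21.7, a log2 fold change of 1.60 (SE 0.184, adjusted p = 0.000483, limma). None of these groups overlapped, and the 3 calls held under all 17 alternatives. The EREG value moved from −2.17 without UF1hypo shUHRF1 replicate 1 to −3.52 without replicate 2.

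ERBB2 had 39.6 and 32.3 in HCT116 shUHRF1 and 143 and 99.9 in UF1hypo shUHRF1, a log2 fold change of 1.71 (SE 0.215, adjusted p = 0.000748, limma). ERBB2 transcripts have the highest GC content of the 10 members, at 60.4%. After the GC and length correction the UF1hypo shUHRF1 libraries stood at 97.4 and 97.0 and the fold change was 1.24, still called, as under each of the 17 alternatives. The genes MIEN1 and PGAP3 overlap ERBB2 on the opposite strand, with a TPM of up to 80.8 and 11.8, and the sources used here do not state whether strand was used in counting, so reads in the overlap cannot be told apart.

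EGFR (33.3 and 25.9 against 50.1 and 54.6) and TGFA (29.1 and 25.6 against 39.8 and 57.0) did not overlap between the lines either. Their log2 fold changes of 0.81 (adjusted p = 0.00936, limma) and 0.78 (adjusted p = 0.0192, limma) were under the fold threshold. ERBB3 had a log2 fold change of 0.42 (adjusted p = 0.115, limma) and BTC of −0.30 (adjusted p = 0.446, limma), and neither was called.

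The rest of the receptor family was almost silent. ERBB4 did not exceed a TPM of 0.0396 in any library, and NRG3 was listed at 0 in all 8. Of the 5 genes ERBB4, NRG1, NRG2, NRG3 and NRG4, the neuregulins being ligands of ERBB3 and ERBB4, 2 were tested (NRG2 and NRG4), and none was called in any comparison.

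Of 13 genes of ligand shedding and trafficking, the main sheddases ADAM10 and ADAM17 were called in no comparison. ADAM17 had a TPM between 22.2 and 31.9 and ADAM10 between 23.3 and 41.9. Of 12 tested in the UF1hypo knockdown, 2 were called higher and 0 lower, beside 7.39% and 1.14% of all genes tested, and the median was −0.12 beside 0.04. One was the membrane protease gene ADAM8 (1.46, adjusted p = 0.0154, limma), and the other the rhomboid protease gene RHBDL2, which was tested only because it exceeded a TPM of 1 in the group where it was high. The tables list RHBDL2 at 0 for each library of UF1hypo shScr and at a TPM of 1.07 and 3.02 for those of UF1hypo shUHRF1. ADAM19, another membrane protease, fell in UF1hypo under shScr (−1.31, adjusted p = 0.0166, limma) and under shUHRF1 (−1.80, adjusted p = 0.001, limma). With shUHRF1 the clone also had RHBDF1 (1.27) and FRMD8 (1.08) called higher, both of which take part in bringing ADAM17 to the cell surface. ADAM8 was called higher as well, and so was RHBDL2, again tested only through its high group. In all 4 were called higher and 1 lower, beside 12.2% and 3.92% of all genes. Transcripts of RHBDF1, FRMD8 and ADAM8 have a GC content of 62.9%, 61.1% and 64.0%, beside a median of 50.1% over the genes tested. Each was higher in UF1hypo shUHRF1 replicate 1 than in replicate 2, and their values after the GC and length correction are not given here. None of the 11 tested in the HCT116 knockdown was called.

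Of 12 inhibitors and turnover factors of the receptors, ERRFI1, which binds and blocks EGFR and is induced by EGFR signalling, was the only one called in any comparison. HCT116 libraries had an ERRFI1 TPM of 772 and 803 (shScr) and 604 and 546 (shUHRF1), and UF1hypo libraries one of 473 and 399 (shScr) and 78.9 and 158 (shUHRF1). The groups followed each other downwards without overlap. It fell on knockdown in UF1hypo (−1.95, SE 0.278, adjusted p = 0.00276, limma) and lay lower in UF1hypo than in HCT116 with shUHRF1 (−2.35, adjusted p = 0.000563, limma). That is 1 of 12 called lower in each, beside 1.14% and 3.92% of all genes tested.

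Of 24 adaptors and kinases below the receptors, the docking protein gene GAB2 was the only one called. Called higher was 1 of 24 in the UF1hypo knockdown, beside 7.39% of all genes tested, and 1 of 24 in the difference, beside 4.54%. With shUHRF1 in both lines it was again 1 of 24, beside 12.2%. GAB2 rose on knockdown in UF1hypo (1.48, adjusted p = 0.00523, limma), from a TPM of 1.85 and 2.25 to 8.79 and 6.40. Its difference from HCT116 was 1.48 (adjusted p = 0.0458, limma). Of 15 feedback and target genes of ERK signalling, none was called in either knockdown or between the lines with shScr. Their median log2 fold change was −0.24 in the HCT116 knockdown, −0.20 in the UF1hypo knockdown and −0.38 in UF1hypo shScr against HCT116 shScr, beside −0.03, 0.04 and −0.05 over all genes. FOSL1, an AP-1 subunit, had a called difference between the knockdowns (1.43, adjusted p = 0.0265, limma), 1 of 15 beside 4.54% of all genes called higher. With shUHRF1, PHLDA1 (−1.003) and the ETS factor gene ETV5 (−1.38) were lower in UF1hypo than in HCT116, 2 of 15 beside 3.92% of all genes.

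Genes whose levels over the 8 libraries were most like those of a member were ranked by the root mean square difference of centred log2(TPM + 1) among 6935 protein-coding genes. For HBEGF these were LAT2 (0.15), AGPAT4 (0.19) and GNG14 (0.20), and for ERBB2 OGDH (0.11), GYS1 (0.12) and MYEOV (0.12). For EREG they were SAMD13 (0.27), NECTIN3 (0.29) and NUCKS1 (0.31), while AREG had no match as close, with RPS4Y1 (0.41), SYT1 (0.50) and CA2 (0.61) nearest. RPS4Y1 was listed at 0 in every UF1hypo library and at a TPM between 4.40 and 7.08 in HCT116. It was thus a candidate only through the line where it was present. TGFA was closest to APBB2 (0.07), EGFR to MYOF (0.07) and BTC to LRRC7 (0.12). The libraries share their groups and base composition, so likeness describes these libraries only.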

How the data were processed

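PolyA RNA-seq of 8 libraries was analysed, 2 in each of 4 groups taken from the sample titles. Reads were cleaned by the authors in Fastp and mapped to GRCh38 by HISAT2 2.0.4, and StringTie 2.1.4 gave gene abundances. The deposited TPM is scaled for length and to the same total in each library, the deposited FPKM for length and aligned bases, and the deposited coverage is the mean read depth per base, not scaled. Depth was recovered as aligned bases from the ratio of coverage to FPKM, 5.42 to 7.83 gigabases. The sources used here do not state whether strand was used in counting. DESeq2, the authors' choice, needs read counts and was therefore left out.

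Gene identifiers were matched to GENCODE version 44 (60463 of 60649). Log2(TPM + 1) of protein-coding genes was fitted in limma 3.58.1 (R 4.3.3) with a mean-variance trend, all 8 libraries and 4 groups, leaving 4 residual degrees of freedom. Testing required a TPM above 1 in 1 or more libraries of the comparison, and a gene was called at a Benjamini-Hochberg adjusted p below 0.05 over all genes tested and an absolute log2 fold change above 1. The fit was tested on simulated data. The 5 comparisons were each knockdown, their difference and UF1hypo against HCT116 under each hairpin. Intervals in figures are unadjusted. The GC and length correction removes each library's median within 10 bins of each. Candidates for likeness were genes whose log2(TPM + 1) spanned more than 1.

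The members and the gene lists were chosen with earlier results of these data known. Named genes are the 10 members, UHRF1, listed genes that were called and, for each member spanning more than 1 log2 unit, the 3 genes most like it. Other genes are named where no gene of their list passed or as the nearest neighbours or the ends of their range, and ADAM10 and ADAM17 as the main sheddases, chosen after their values were seen. EPCAM is named as a marker that did not follow the keratins, also chosen after its values were seen. RefSeq promoters matched 9 of the 10 members, and motifs were counted over 15192 promoters. Python 3.11.15, numpy 2.4.6, pandas 2.3.3 and matplotlib 3.10.9 were used. Values were recomputed with FPKM, with median-ratio or quantile scaling, with the GC and length correction, with library weights, with a replicate block, without a variance trend, with a pseudocount of 0.1, with the TPM filter dropped or set on the mean, over all annotated genes, with the largest record per gene, from the libraries of a comparison alone, and leaving out single libraries. A crossed replicate block was added after seeing the data.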

Additional observations from a re-analysis of the deposited data

Results flagged for a closer look

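HBEGF was set apart because its response to UHRF1 knockdown differed between the cell lines. The difference of the knockdown effects was 2.50 on the log2 scale (SE 0.260, adjusted p = 0.00147, limma), with both HCT116 shUHRF1 libraries below both HCT116 shScr libraries and both UF1hypo shUHRF1 libraries above both UF1hypo shScr libraries. What underlies the difference was not tested.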

How the results depend on the processing

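Of the members' fold changes recomputed under the alternatives, 666 kept their direction and side of the threshold, 14 lost a call, all of EREG, 8 gained a call and 24 changed sign. The number of members called in the HCT116 knockdown was 1 instead of 0 with the libraries of the comparison alone and with library weights (HBEGF). In the UF1hypo knockdown it was 1 instead of 2 without a TPM filter and with the libraries of the comparison alone, and 1 to 2 when a library was left out, EREG being the gene lost. For the difference of the knockdown effects it was 3 instead of 1 after the GC and length correction, and 1 to 3 when a library was left out. In UF1hypo shScr against HCT116 shScr it was 1 instead of 2 with a pseudocount of 0.1, without a TPM filter, with all annotated genes, without a variance trend and in the replicate block fit, and 1 in each case when a library was left out. The replicate block changed no other count of members. Same-numbered libraries did not deviate together (r = 0.05 in HCT116 and −0.40 in UF1hypo), so the number gives no pairing; with crossed numbers as the block, 2 members were called in the UF1hypo knockdown, and over all genes 1207 against 1162 without a block and 1110 with it. The summed ligand TPM was not recomputed from FPKM, which is another unit.

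Changes of sign touched only values near 0 that were not called. In the HCT116 knockdown AREG was 0.031 with median-ratio scaling and −0.058 to 0.020 when a library was left out, EGFR was 0.021 after the GC and length correction and −0.24 to 0.11, and BTC was −0.48 to 0.036. In the UF1hypo knockdown quantile normalization gave −0.0014 for AREG, −0.048 for BTC and −0.017 for EGFR, and leaving out a library gave −0.17 to 0.34 for AREG and −0.0062 to 0.49 for BTC. For the difference, ERBB3 was −0.012 with FPKM, −0.024 with median-ratio scaling, −0.064 with quantile normalization and −0.16 after the GC and length correction, and −0.11 to 0.19 when a library was left out. EGFR was −0.0065 after the correction and −0.043 to 0.31, and AREG −0.15 to 0.36. BTC in UF1hypo against HCT116 with shUHRF1 was 0.082 after the correction. The causes were not tested.

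Quantile normalization shifted the median of all genes by −0.10 in the UF1hypo knockdown and by −0.14 in the difference and in UF1hypo against HCT116 with shUHRF1. It lowered the share of calls that were higher from 86.7% to 70.2%, from 89.0% to 76.1% and from 75.7% to 56.8%. Without read counts, the counting error of EGF, EPGN and BTC is unknown.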

Other observations

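Receptor tyrosine kinases outside the ERBB family gave a mixed picture. Of 43 such genes 26 were tested in the HCT116 knockdown and none was called. Of these, 1 had an unadjusted p below 0.05 in limma, beside 810 of all 12704 genes tested. Of 30 tested in the UF1hypo knockdown 4 were called higher and 1 lower, beside 7.39% and 1.14% of all genes tested. Among those higher were the ephrin receptor gene EPHB2 (1.03) and RET (1.04). FLT4 was also called, but it exceeded a TPM of 1 in UF1hypo shUHRF1 only (2.71 and 1.88) and so was tested only through the group where it was high. The gene that fell was MET, the hepatocyte growth factor receptor gene (−1.15, adjusted p = 0.0069, limma). MET had a TPM of 131 and 123 in UF1hypo shScr and of 46.6 and 68.6 in UF1hypo shUHRF1, without overlap. The median over the list was 0.28, beside 0.04 over all genes tested. FLT4 and other listed genes with a TPM above 1 in UF1hypo shUHRF1 only are part of that median. With shUHRF1 in both lines 8 of 30 tested were called higher in UF1hypo, beside 12.2% of all genes. Among them were AXL (1.67, adjusted p = 0.000313, limma), MST1R (1.63) and EPHA2 (1.14). FLT4 was also among them, again tested only through its high group. The insulin receptor gene INSR was called lower (−1.08), 1 of 30 beside 3.92%. With shScr in both lines none of 27 tested was called. An unadjusted p below 0.05 in limma was found for 8 of the 27, beside 2341 of all 12856 genes tested. Transcripts of MST1R and EPHA2 have a GC content of 59.9% and 60.3%, and their values after the GC and length correction are not given here.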
